A study of Mus musculus with 18 samples.

Results

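Thymic epithelium genes are the subject here: Prss16, Ccl25, Psmb11, Foxn1, Krt5, Krt8, Krt18, Epcam, Aire and Dll4, followed through mouse thymocytes and T-cell lymphomas with stabilized beta-catenin. A probe set is a group of short probes that together report 1 transcript, and every probe set that the array annotation assigned to a single one of these symbols was taken. This gave 16 probe sets for 10 genes, of 45101 probe sets and 18194 singly named genes on the array. The members were chosen by name, with earlier results of these data already known. Of the 16 probe sets, 11 passed a filter on low signal, and each of the 10 genes kept at least 1.

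Lymphomas, thymocytes before transformation and control thymocytes were compared on Affymetrix mouse expression arrays, with 1 array for each mouse. Lymphomas came from 8 CD4Cre-ctnnbex3 mice and were collected as tumour masses or thymocytes. Thymocytes before transformation came from 5 CD4Cre-ctnnbex3 mice that had no lymphoma yet. Control thymocytes came from 5 mice that the sample labels call wild type, while the design text of the series calls them LckCre, so whether the controls carried a Cre transgene is not settled. In both CD4Cre-ctnnbex3 groups, Cre is driven by Cd4 regulatory sequences, which are active in developing T cells, and removes exon 3 of the beta-catenin gene Ctnnb1, so that the protein escapes degradation. No age, strain background or account of how far stroma was removed from the cells is stated with these samples. Since the labels describe each mouse as independent, the mouse is the replicate.

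The thymic epithelium is the stromal scaffold on which T cells develop. Its cortical cells attract progenitors with Ccl25, instruct the T-cell fate through the Notch ligand Dll4 and present peptides for positive selection, made by the protease Prss16 and by the thymoproteasome subunit Psmb11. Medullary cells, which carry Krt5 and Epcam, display tissue antigens under the control of Aire, and the transcription factor Foxn1 is needed for both lineages to form. Krt8 and Krt18 pair into the keratin filaments of cortical epithelium, and their genes are neighbours in the mouse genome. By cell number the epithelium is a small part of the thymus, most of which is thymocytes.

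The 300-base promoters of Ccl25, Psmb11, Krt8 and Krt18 are shown because Foxn1 binds a short core, GACGC, in the regulatory sequences of cortical genes. Each runs from 250 bases before to 50 bases after a start site listed by RefSeq on build GRCm38.p6, 5′ to 3′ on the gene's own strand. Capitals mark GACGC or its reverse complement GCGTC, which were searched on both strands and do not overlap each other in the windows shown. RefSeq lists 2 starts for Ccl25, at chr8:4324960-4325259 (plus strand) and chr8:4349338-4349637 (plus strand). Psmb11 lies at chr14:54625060-54625359 (plus strand), Krt8 at chr15:102004293-102004592 (minus strand) and Krt18 at chr15:102027966-102028265 (plus strand).
Ccl25 first start: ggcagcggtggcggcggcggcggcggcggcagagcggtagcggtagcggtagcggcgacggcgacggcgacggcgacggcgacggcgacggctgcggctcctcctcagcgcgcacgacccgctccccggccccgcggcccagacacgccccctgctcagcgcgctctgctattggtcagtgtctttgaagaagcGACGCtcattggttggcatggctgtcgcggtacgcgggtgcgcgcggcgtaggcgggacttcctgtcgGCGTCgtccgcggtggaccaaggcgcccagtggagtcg
Ccl25 second start: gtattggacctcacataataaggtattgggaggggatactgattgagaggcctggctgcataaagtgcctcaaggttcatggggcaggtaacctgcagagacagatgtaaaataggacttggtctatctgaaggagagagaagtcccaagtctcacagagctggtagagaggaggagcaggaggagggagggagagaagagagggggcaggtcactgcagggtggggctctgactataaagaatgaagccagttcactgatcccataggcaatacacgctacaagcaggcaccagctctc
Psmb11: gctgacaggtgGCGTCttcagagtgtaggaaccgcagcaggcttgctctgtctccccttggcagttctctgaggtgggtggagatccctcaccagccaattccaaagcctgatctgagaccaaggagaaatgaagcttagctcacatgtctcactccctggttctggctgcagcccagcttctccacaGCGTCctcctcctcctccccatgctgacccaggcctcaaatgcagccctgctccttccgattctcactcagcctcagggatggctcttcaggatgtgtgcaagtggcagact
Krt8: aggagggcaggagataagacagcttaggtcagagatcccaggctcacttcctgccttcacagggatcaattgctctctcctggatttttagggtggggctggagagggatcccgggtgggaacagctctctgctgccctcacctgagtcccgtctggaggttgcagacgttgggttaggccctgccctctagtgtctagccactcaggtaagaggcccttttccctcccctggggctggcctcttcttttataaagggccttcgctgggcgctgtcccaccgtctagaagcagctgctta
Krt18: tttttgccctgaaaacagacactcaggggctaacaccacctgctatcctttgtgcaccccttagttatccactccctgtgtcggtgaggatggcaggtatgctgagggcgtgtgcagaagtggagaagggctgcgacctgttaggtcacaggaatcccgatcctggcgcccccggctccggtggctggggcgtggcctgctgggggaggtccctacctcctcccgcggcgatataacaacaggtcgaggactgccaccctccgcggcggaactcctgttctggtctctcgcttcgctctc
The core occurred 2 times in the Psmb11 window, beginning 239 and 62 bases before the start site. The first Ccl25 window also held it 2 times, once 56 bases before and once 12 bases after the start site, while the second Ccl25 window held none. Neither keratin window held it. Among all 32851 mouse promoter windows of this length, 8932 (27.2%) held at least 1 match, so a match by itself is common and describes only these letters. Across the other members in the promoter table, Krt5 and Aire held 1 match each, and Foxn1, Epcam and Dll4 held none. Prss16 is named only.

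Before the results, the arrays themselves were compared. Array medians lay between 125 and 166 intensity units, a spread of 0.45 on the log2 scale, and no array was rescaled. Intensities below 53.5 were set to that floor, the 20th percentile of all values, and a probe set was tested when it exceeded 109 on at least 5 of the 18 arrays. No thymocyte marker (Cd3e, Cd3g, Cd4, Cd8a, Cd8b1, Ptprc and Thy1) was at the floor throughout a group, and their sums were of 19036 to 30141 in lymphomas, 37688 to 58185 before transformation and 42946 to 47215 in controls. The controls fell into 2 sets that the group label does not name. Controls 1 and 2 had Xist intensities of 8593 and 8576, against 79.1 to 96.7 in controls 3 to 5 and 67.0 to 125 in the 5 mice before transformation. Eif2s3y, a Y-linked gene, was at 6.26 and 0.884 in controls 1 and 2, against 600.0 to 833 in controls 3 to 5, so the first 2 controls read as female and the others, like all mice before transformation, as male. Xist was at 4398 to 7278 in lymphomas 1, 2 and 5 to 8, with Eif2s3y at 39.9 in lymphoma 8 and blank in the others of these, which read as female. Lymphoma 3 read as male, with Xist at 72.7 and Eif2s3y at 611, and lymphoma 4 gave both signals, at 1110 and 313. Mostly female lymphomas were thus set against male mice before transformation, and in mice numbered 3 and up also against male controls, and the part of sex in those differences was not tested. For the members, results that rest on the controls are therefore also given, by value or by count, for mice numbered 1 and 2 and for mice numbered 3 and up. For the genes of the other lists they are not.

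**Figure D1:**
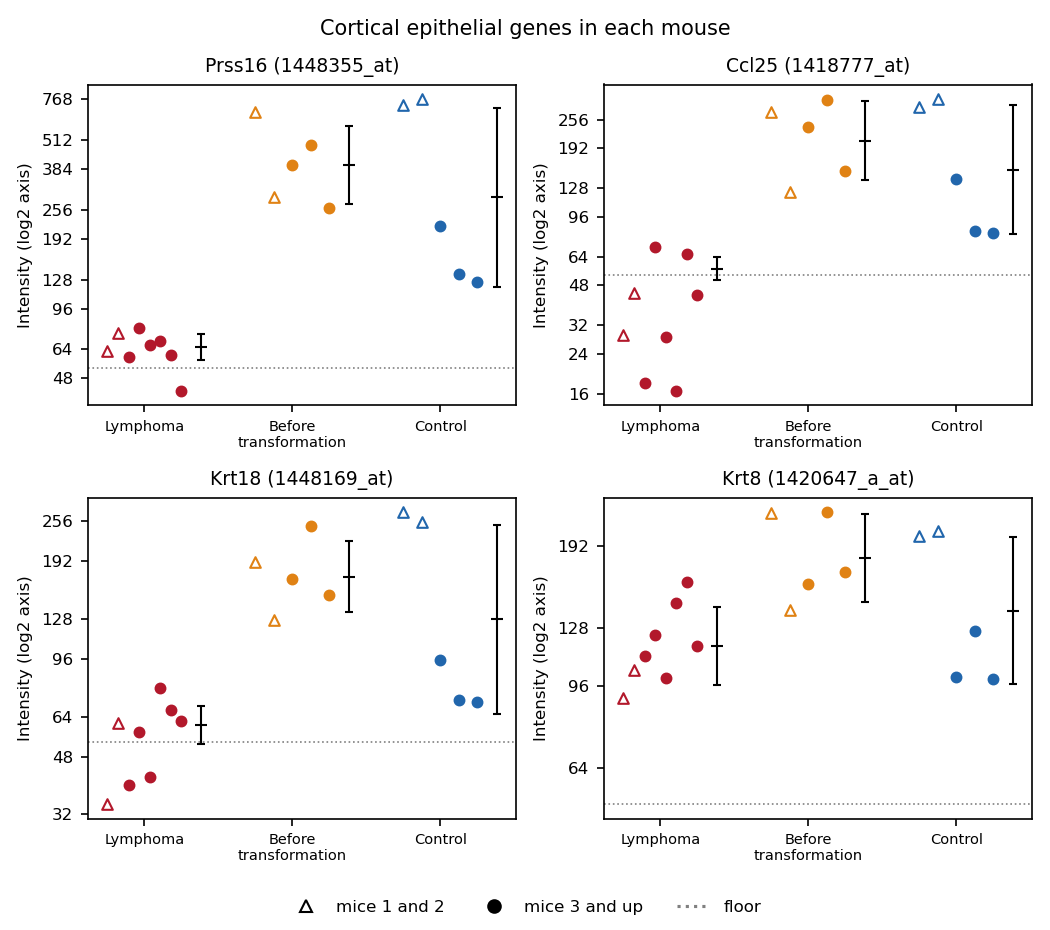
Intensity of Prss16, Ccl25, Krt18 and Krt8 in each mouse, on a log2 axis, for lymphomas (n = 8), CD4Cre-ctnnbex3 mice before transformation (n = 5) and controls (n = 5). Open triangles are mice 1 and 2, filled circles mice 3 and up, black bars the mean ± SD of log2 values with the floor applied, and the dotted line the floor of 53.5. The highest lymphoma lies at 79.5 units for Prss16, and controls 1 and 2 lie above controls 3 to 5 in all 4 panels.

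The cortical genes Prss16, Ccl25 and Krt18 were the members with the largest differences, all lower in lymphomas than in thymocytes of either other group. Krt8 was lower in lymphomas than before transformation. Before transformation, none of the 10 genes differed from controls when all mice were used. In bulk RNA, fewer epithelial cells and less RNA per epithelial cell cannot be told apart. Lymphomas were collected as tumour masses or thymocytes and the other groups as thymocytes, so the way of collection cannot be told apart from group either. The filter passed Prss16, Ccl25 and Krt18 only through the thymocyte groups, since no lymphoma exceeded its level for these genes, so their passing the filter and their differences are not independent. The same limit holds for Foxn1, Psmb11 and the _a_at probe set of Epcam, with only 1, 1 and 2 lymphomas above that level.

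Prss16, the thymus-specific serine protease of cortical epithelium, ranged from 42.5 to 79.5 intensity units in the 8 lymphomas, with a median of 64.9. It was at 674, 291, 398, 487 and 261 in mice 1 to 5 before transformation, and at 722, 766, 217, 136 and 125 in controls 1 to 5. The highest lymphoma was below the lowest mouse of each other group, so neither pair of groups overlapped. The log2 level fell by 2.15 ± 0.39 (SE) in lymphomas relative to controls, which is 4.43-fold lower (limma, adjusted p = 0.000585, n = 8 and 5). Relative to mice before transformation it fell by 2.60 ± 0.20 (SE), or 6.07-fold (limma, adjusted p = 9.56e-07, n = 8 and 5).

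Ccl25, the chemokine that draws Ccr9-bearing progenitors and thymocytes to epithelium, was close to the floor in lymphomas. Its tested probe set ranged from 16.5 to 70.6 in lymphomas with a median of 36.3, and 6 of 8 lymphomas were at the floor. It was at 278, 123, 237, 312 and 152 before transformation and at 291, 316, 141, 83.2 and 81.4 in controls. Lymphomas did not overlap with either other group. The fold differences are held down by the floor: 2.72-fold lower than controls (limma, adjusted p = 0.00156) and 3.65-fold lower than before transformation (limma, adjusted p = 1.58e-05). The second Ccl25 probe set did not pass the filter, with no more than 131 units on any array and overlapping groups.

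Krt18, the type I keratin of simple and cortical epithelium, ranged from 34.5 to 78.5 in lymphomas with a median of 59.3, and 3 lymphomas were at the floor. It was at 191, 126, 169, 247 and 152 before transformation and at 272, 254, 95.4, 71.8 and 71.2 in controls. Lymphomas were all below the mice before transformation, but 1 lymphoma lay above controls 4 and 5. The log2 level fell by 1.08 ± 0.31 (SE) in lymphomas relative to controls, 2.11-fold (limma, adjusted p = 0.0123), and by 1.52 ± 0.16 relative to mice before transformation, 2.86-fold (limma, adjusted p = 1.35e-05). As for Ccl25, the floor holds these folds down. With the floor at the 10th percentile the differences were -1.26 and -1.70 on the log2 scale, and with the floor at the 30th percentile they were -0.76 and -1.14.

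Krt8, its type II partner, ranged from 90.5 to 161 in lymphomas with a median of 114 on its tested probe set. It was at 227, 140, 160, 227 and 169 before transformation and at 202, 208, 100.4, 126 and 99.6 in controls. Lymphomas overlapped with both other groups. The level fell by 0.63 ± 0.17 (SE) on the log2 scale in lymphomas relative to mice before transformation, 1.55-fold (limma, adjusted p = 0.00922), and the difference from controls was -0.25 with a 95% interval of -0.70 to 0.19 (limma, adjusted p = 0.354). The other Krt8 probe sets did not pass the filter. Both are of the _x_at type, which may also bind related transcripts, and both had their highest lymphoma, at 81.1 and 74.7, within the range of the mice before transformation.

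Psmb11, the beta5t subunit found in the thymoproteasome of cortical cells, ranged from 42.2 to 111 in lymphomas with a median of 80.2. It was at 109, 86.8, 109, 203 and 110.2 before transformation and at 106, 138, 109, 74.3 and 66.1 in controls. The groups overlapped throughout. The difference was -0.57 against mice before transformation (95% interval -1.04 to -0.10, limma, adjusted p = 0.0534) and -0.26 against controls (-0.72 to 0.20, adjusted p = 0.360). Leaving out lymphoma 4, lymphoma 6 or mouse 2 before transformation brought the adjusted p against mice before transformation to 0.0485, 0.0347 and 0.0309. That difference also passed after quantile normalization (limma, adjusted p = 0.0493), with all 3 groups in 1 fit (0.0497), without the intensity trend (0.0491) and with the set of mouse numbers as a block (0.0157), so its call depends on the setting.

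Foxn1, the transcription factor on which epithelial differentiation depends, ranged from 73.0 to 113 in lymphomas with a median of 86.4 on its tested probe set. It was at 104, 74.5, 137, 165 and 163 before transformation and at 181, 233, 140, 129 and 107 in controls. Lymphomas were lower than controls with an overlap at the edge, where lymphoma 1 at 113 exceeded control 5 at 107. The log2 level fell by 0.78 ± 0.18 (SE) in lymphomas relative to controls, 1.71-fold (limma, adjusted p = 0.00304), while the difference from mice before transformation was -0.47 (95% interval -0.88 to -0.07, adjusted p = 0.0634). It passed against mice before transformation when lymphoma 1 (adjusted p = 0.0445) or mouse 2 before transformation (0.00645) was left out. The second Foxn1 probe set reached no more than 38.5 units on any array and was at the floor on all 18.

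Dll4, the Notch ligand of cortical epithelium, is also made by endothelium, so it is the least specific of the cortical members. Its tested probe set ranged from 292 to 446 in lymphomas with a median of 331. It was at 402, 350.5, 425, 532 and 389 before transformation and at 452, 542, 454, 405 and 321 in controls, and the groups overlapped. The difference was -0.27 against mice before transformation (95% interval -0.56 to 0.02, limma, adjusted p = 0.136) and -0.31 against controls (-0.62 to -0.01, adjusted p = 0.0914). The difference from controls passed without lymphoma 1 (adjusted p = 0.0414) or without control 5 (0.0289). The second Dll4 probe set did not pass the filter and lay between 58.0 and 132 on all arrays.

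Among the medullary members, Krt5, a keratin of medullary and basal epithelium, ranged in lymphomas from 186 to 255 with a median of 221. It was at 179, 163, 303, 287 and 273 before transformation and at 214, 239, 229, 156 and 155 in controls. No comparison of Krt5 passed the test with all mice: the differences were 0.17 for lymphomas against controls (95% interval -0.13 to 0.47, limma, adjusted p = 0.350) and -0.09 against mice before transformation (-0.44 to 0.26, adjusted p = 0.709). Aire, which drives the expression of tissue antigens in the medulla, ranged from 48.2 to 216 in lymphomas with a median of 134, against 108, 64.9, 119, 137 and 111 before transformation and 158, 236, 130, 125 and 115 in controls. Its lymphoma range enclosed every other mouse except control 2. The differences were -0.30 against controls (-0.98 to 0.39, adjusted p = 0.485) and 0.19 against mice before transformation (-0.50 to 0.88, adjusted p = 0.672).

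Epcam, a surface adhesion molecule of epithelium that is high in the medulla, gave readings that disagreed between its probe sets. Its _a_at probe set ranged from 19.2 to 124 in lymphomas with a median of 80.6. It was at 88.6, 64.2, 282, 99.6 and 84.8 before transformation and at 166, 150, 159, 125 and 153 in controls. Every lymphoma was below every control, and the log2 level fell by 0.90 ± 0.21 (SE), 1.87-fold (limma, adjusted p = 0.00275). Against mice before transformation the difference was -0.41 (95% interval -1.08 to 0.26, adjusted p = 0.333). Its _x_at probe set, which may also bind related transcripts, ranged from 567 to 845 in lymphomas with a median of 785, against 818, 628, 1164, 1691 and 1110 before transformation and 688, 917, 1019, 1086 and 738 in controls. Its differences were -0.21 against controls (-0.49 to 0.07, adjusted p = 0.220) and -0.43 against mice before transformation (-0.84 to -0.03, adjusted p = 0.0867, or 0.0113 without mouse 2 before transformation), so the drop in Epcam relative to controls rests on 1 of its 2 probe sets.

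**Figure D2:**
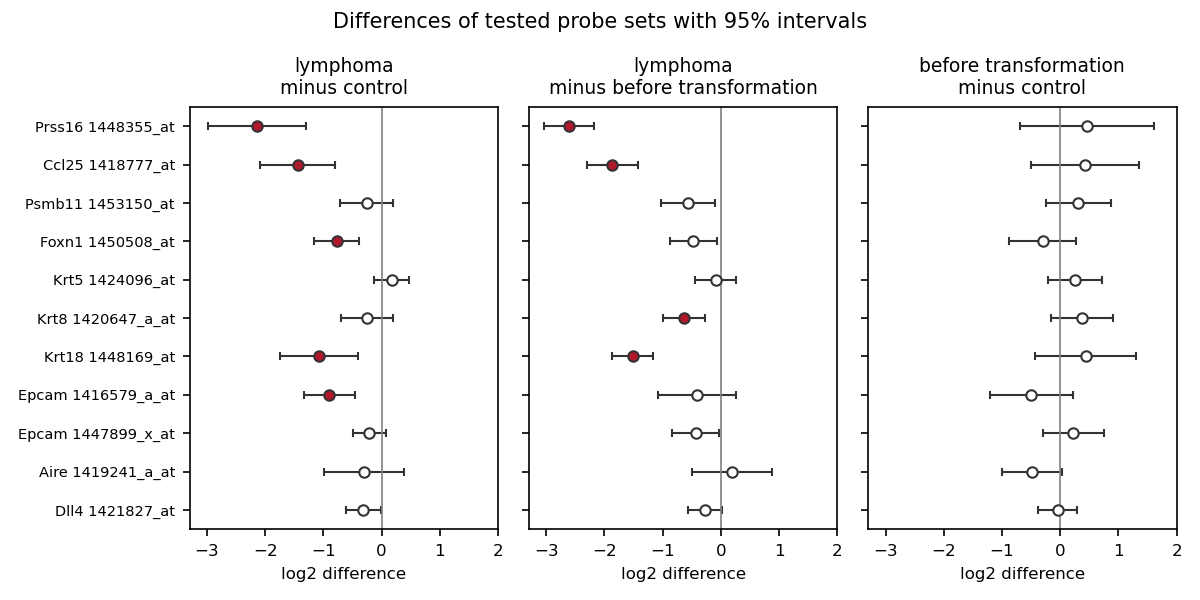
Log2 differences of the 11 tested probe sets for lymphoma minus control, lymphoma minus before transformation and before transformation minus control, with 95% intervals from limma. Filled points passed an adjusted p of 0.05. Prss16, Ccl25 and Krt18 are filled and furthest left in both lymphoma panels, and no point is filled in the third.

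Counted over the 11 tested probe sets, 5 fell and 0 rose in lymphomas relative to controls, where 40.9% of all 29947 tested probe sets passed the test, 25.4% as lower and 15.6% as higher. The 5 were those of Prss16, Ccl25, Foxn1 and Krt18 and the _a_at probe set of Epcam. For 3 of them, Prss16, Ccl25 and Epcam, the groups did not overlap, against 12.8% of all tested probe sets. Relative to mice before transformation 4 fell and 0 rose (Prss16, Ccl25, Krt8 and Krt18), where 36.7% of all tested probe sets passed, 22% as lower and 14.7% as higher. Of these, Prss16, Ccl25 and Krt18 did not overlap, against 10.8% of all tested probe sets. The median difference over the 10 genes, each by its brightest probe set, was -0.31 against controls and -0.52 against mice before transformation, while over all tested probe sets it was -0.07 in each. The comparisons share their lymphoma arrays, and the filter above favours members that differ, so these shares describe the members and support nothing further.

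**Figure D3:**
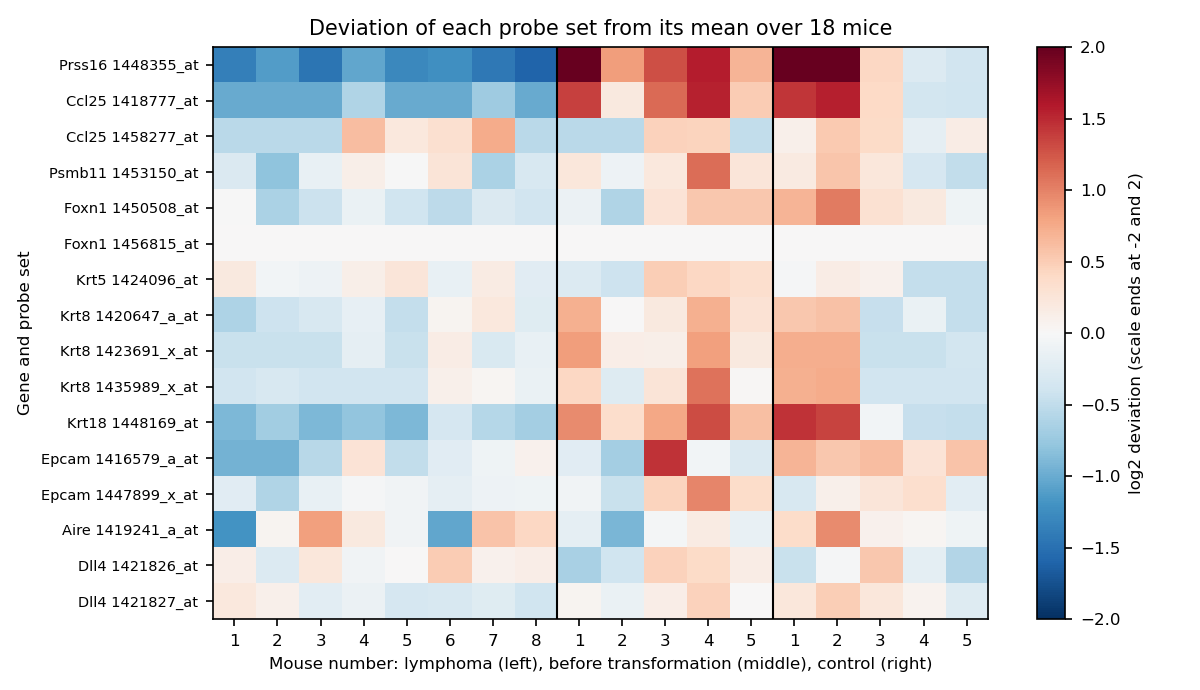
Deviation of all 16 probe sets from their mean over 18 mice, on the log2 scale with the floor applied. Columns are lymphomas 1 to 8 (left), mice 1 to 5 before transformation (middle) and controls 1 to 5 (right), and blue is below and red above the mean. The rows of Prss16, Ccl25 and Krt18 are blue in the lymphomas, and controls 1 and 2 are red where controls 3 to 5 are pale or blue.

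Before transformation, no cortical member differed from controls by the test, and the groups overlapped for each. Krt8 in mice 1 and 4 before transformation and Psmb11 in mouse 4 lay above every control, and Foxn1 in mice 1 and 2 before transformation lay below every control. With all 5 mice on each side, 0 of the 11 tested probe sets passed the test in limma and 0 had an unadjusted p under 0.05, where 10.4% of all tested probe sets passed. The differences were 0.46 for Prss16 (95% interval -0.70 to 1.61), 0.43 for Ccl25 (-0.50 to 1.35), 0.44 for Krt18 (-0.43 to 1.30), 0.38 for Krt8 (-0.16 to 0.91) and 0.31 for Psmb11 (-0.24 to 0.87). For Foxn1 the difference was -0.30 (-0.87 to 0.27), for Dll4 -0.04 (-0.38 to 0.29) and for Krt5 0.26 (-0.20 to 0.72). For Epcam it was -0.50 (-1.21 to 0.21) on the _a_at probe set, which passed at -0.85 (limma, adjusted p = 0.00413) without mouse 3 before transformation, and 0.22 (-0.29 to 0.74) on the _x_at probe set. Aire had the lowest adjusted p of the members, 0.264, at a difference of -0.49 (-1.01 to 0.02).

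For Prss16, Ccl25, Krt18 and Krt8 the spread was wider in the controls than before transformation, with SDs of 0.56 before transformation and 1.28 in controls for Prss16 on the log2 scale. For the _a_at probe set of Epcam it was the other way round, at 0.82 before transformation and 0.16 in controls. Controls 1 and 2 exceeded controls 3 to 5 by 4.82-fold in Prss16, 3.33-fold in Krt18, 3.07-fold in Ccl25 and 1.90-fold in Krt8, and in each of these genes both lay above all of controls 3 to 5. Foxn1, at 1.65-fold, and Aire, at 1.57-fold, leaned the same way. Summed macrophage markers also stood at 3547 and 4014 in controls 1 and 2, against 2067 to 2313 in controls 3 to 5, and their part in the difference was not tested. Because the sets differ in the sex signal as well, sex and whatever else separated these mice cannot be told apart.

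For 9 of the 11 tested probe sets, the difference between mice before transformation and controls had opposite signs in the sets. The _a_at probe set of Epcam, at -1.06 in mice 1 and 2 and -0.12 in mice 3 and up, and Aire, at -1.21 and -0.01, had the same sign in both. In mice 3 and up, the log2 level of Prss16 rose by 1.26 relative to controls (limma, adjusted p = 0.0413) and Krt18 rose by 1.23 (adjusted p = 0.0171). Those 2 of 11 probe sets stand beside 3.85% of all tested probe sets that rose in limma, at n = 3 and 3. Ccl25 in the same mice differed by 1.19 (adjusted p = 0.0673) and Krt8 by 0.76 (adjusted p = 0.0508). With all 5 mice before transformation against controls 3 to 5, Prss16 rose by 1.36 (limma, adjusted p = 0.0329) and Krt18 by 1.13 (adjusted p = 0.0138), where 3.51% of all tested probe sets rose. In mice 1 and 2 the differences were -0.75 for Prss16 (adjusted p = 0.327), -0.71 for Ccl25 (0.353) and -0.76 for Krt18 (0.137). There Foxn1 fell by 1.22 (adjusted p = 0.0470) and the _a_at probe set of Epcam fell by 1.06 (adjusted p = 0.0471), 2 of 11 beside 4.92% of all tested probe sets that fell in limma, at n = 2 and 2. The change of effect between the sets, an analysis chosen after seeing the data, passed for Krt18 at -1.99 ± 0.36 (SE, adjusted p = 0.0454), where 0.588% of all tested probe sets passed. For Foxn1 it was -1.54 ± 0.29 (adjusted p = 0.0515) and for Krt5 -1.10 ± 0.26 (adjusted p = 0.0918). For Prss16 it was -2.01 ± 0.53 (adjusted p = 0.120) and for Ccl25 -1.90 ± 0.56 (adjusted p = 0.154). The estimate was negative for every tested member probe set.

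The lymphoma differences kept their direction in both sets for Prss16, Ccl25 and Krt18, with a size that followed the controls. Against controls, Prss16 differed by -3.43 in mice 1 and 2 and by -1.26 in mice 3 and up, Ccl25 by -2.50 and -0.77, and Krt18 by -2.20 and -0.36. The Krt18 difference in mice 3 and up did not pass the test (limma, adjusted p = 0.128). Against mice before transformation the sets lay closer together, at -2.68 and -2.52 for Prss16, -1.79 and -1.95 for Ccl25 and -1.44 and -1.59 for Krt18. Krt8 in mice 1 and 2 alone, at -0.88, did not pass against mice before transformation (adjusted p = 0.0785). By count, 6 of 11 probe sets fell relative to controls in mice 1 and 2, beside 20.3% of all tested probe sets, and 4 in mice 3 and up, beside 21.7%. Relative to mice before transformation 3 fell in mice 1 and 2, beside 14.2%, and 8 in mice 3 and up, beside 25.1%. The 8 were Prss16, Ccl25, Foxn1, Krt5, Krt8, Krt18, Dll4 and the _x_at probe set of Epcam, and Foxn1 fell by 0.81 on the log2 scale (limma, adjusted p = 0.00107). The mice before transformation were uneven as well: mice 3 to 5 all lay above mice 1 and 2 in Foxn1 (1.75-fold), Krt5 (1.68-fold) and the _x_at probe set of Epcam (1.81-fold). Without mouse 2 before transformation, 7 of 11 fell relative to that group, beside 23% of all tested probe sets. With the set of mouse numbers as a block 7 of 11 fell as well, beside 28.7%. Lymphoma 3, with its male signals, had Prss16 at 59.4, Ccl25 at 17.9 and Krt18 at 39.5, below every mouse of the other groups.

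**Figure D4:**
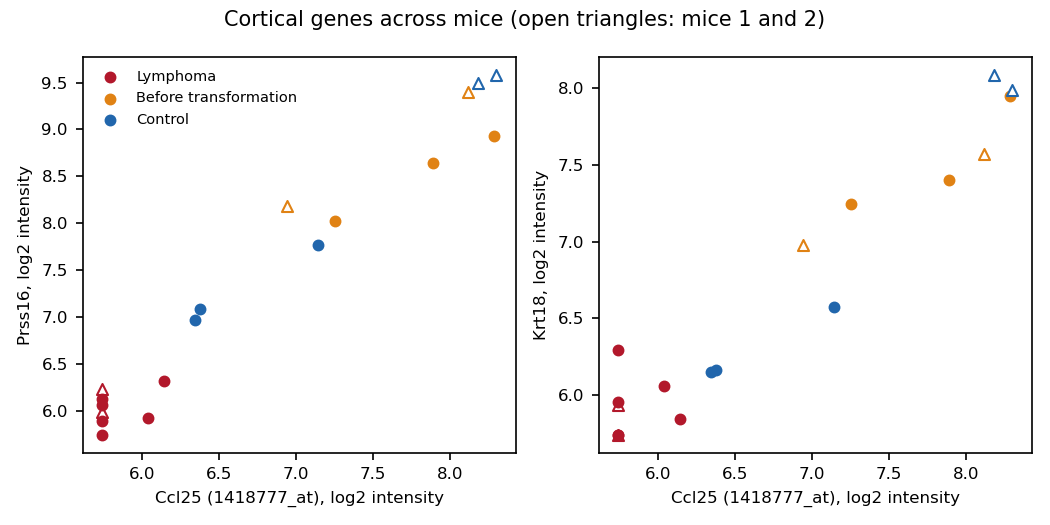
Log2 intensity of Prss16 (left) and Krt18 (right) against Ccl25 in each mouse, with the floor applied. Colours are the groups, and open triangles are mice 1 and 2. Mice before transformation and controls lie along a line in both panels, with r of 0.957 and 0.956 after removal of group means, and the lymphomas sit together at the lower left.

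Several cortical genes varied together from mouse to mouse. Of 15 pairs among Prss16, Ccl25, Krt8, Krt18, Foxn1 and Psmb11, 11 passed by Pearson r after adjustment and 4 did not. No share over other gene pairs stands beside this count, so it describes these pairs only. Over the 10 thymocyte mice of both non-lymphoma groups, after subtraction of each group's mean, Prss16 and Ccl25 correlated at Pearson r = 0.957 (permutation p = 0.00148, adjusted 0.0111) and Spearman rho = 0.976 (permutation p = 0.00135, adjusted 0.0101). For Ccl25 and Krt18, r was 0.956 (permutation p = 0.00019, adjusted 0.00285) and rho 0.976 (0.00034, adjusted 0.0051). For Prss16 and Krt18, r was 0.955 (permutation p = 0.00269, adjusted 0.01345) and rho 0.939 (0.00346, adjusted 0.0171). For Krt8 and Krt18, whose products pair, r was 0.907 (permutation p = 0.00609, adjusted 0.0228) and rho 0.879 (0.0138, adjusted 0.0362). All 15 pairs were computed with 100000 permutations within groups and two-sided p-values adjusted over the 15. The permutations did not keep controls 1 and 2 apart from the other controls. Any 2 genes that differ between those sets of controls can therefore correlate here. Without the 2 mice farthest from the median of the first gene of each pair, r was 0.919, 0.928, 0.890 and 0.800 in the same order. Controls 1 and 2 form a cluster of their own, and within the 6 mice numbered 3 and up r was 0.995 for Prss16 with Ccl25, 0.931 for Ccl25 with Krt18, 0.904 for Prss16 with Krt18 and 0.496 for Krt8 with Krt18. Within those mice Krt8 followed the others less closely, with r of 0.239 for Prss16 with Krt8 and 0.259 for Ccl25 with Krt8, so these relations of Krt8 rest on mice 1 and 2. Foxn1 was also looser there, with r of 0.352 with Ccl25 and 0.502 with Krt18, against 0.724 and 0.734 over the 10 mice. For Foxn1 with Psmb11, r was 0.680 there and 0.792 over the 10 mice. The pairs that did not pass over the 10 mice were Prss16 with Foxn1 (r = 0.584, permutation p adjusted 0.0866), Prss16 with Psmb11 (0.651, adjusted 0.0661), Krt8 with Psmb11 (0.658, adjusted 0.0654) and Krt8 with Foxn1 (0.679, adjusted 0.0547).

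Over all 18 arrays, the genes whose deviations from group means were most like those of the members' average were Slc35e1 (r = 0.873), Adamts7 (0.843), Tfeb (0.829), Dhdds (0.824) and Acp7 (0.818), of 14008 genes compared. Among the members, Ccl25 followed the average most closely (0.958), then Krt18 (0.891) and Prss16 (0.851), and Epcam least (0.397). The members enter their own average, and these values are a description.

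Other genes of cortical epithelium did not move as 1 block. Of 8 listed, 7 were tested, and in lymphomas relative to controls 1 rose and 2 fell, against background shares of 15.6% and 25.4%. After quantile normalization or median centring, Kitl also passed as higher in both lymphoma comparisons. Tbata, a gene of cortical epithelium that is also made in other tissues, fell by 1.10 ± 0.22 (SE, adjusted p = 0.00109) relative to controls and by 1.63 ± 0.21 relative to mice before transformation. Ctsl, the lysosomal protease that cuts the invariant chain in cortical cells and is also made by macrophages, fell by 1.33 ± 0.45 (adjusted p = 0.0271) and by 2.33 ± 0.29. The controls were uneven in Ctsl, with an SD of 1.19 on the log2 scale, and overlapped with the lymphomas. The summed list was at 8743, 8616, 3362, 3297 and 8110 in controls 1 to 5, and at 2377 to 5325 in lymphomas. Cxcl12, a chemokine of cortical epithelium and of many mesenchymal cells, rose by 0.67 ± 0.15 (adjusted p = 0.00216) and by 0.72 ± 0.16. Before transformation 1 of the 7 passed: Ly75, an endocytic receptor of cortical epithelium and dendritic cells, rose by 0.77 ± 0.14 relative to controls (adjusted p = 0.00484), where 4.48% of all tested probe sets rose.

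The medullary list was thinner on the array, with 6 of 9 measured genes tested. In lymphomas relative to controls 3 fell and 0 rose, where 25.4% and 15.6% of all tested probe sets did: Cldn4 by 0.48 ± 0.12 (adjusted p = 0.00403), Fezf2, a transcription factor that controls tissue antigens alongside Aire, by 0.67 ± 0.20 (adjusted p = 0.0161), and Cldn3 by 0.30 ± 0.11 (adjusted p = 0.0449), which did not pass once arrays were rescaled. Relative to mice before transformation 2 fell and 1 rose, where 22% and 14.7% of all tested probe sets did. Fezf2 fell by 0.66 ± 0.25 (adjusted p = 0.0483) and Cldn3 by 0.37 ± 0.12 (adjusted p = 0.0275), while Cldn4 rose by 0.44 ± 0.16 (adjusted p = 0.0445). Cldn4, a tight-junction claudin of the medulla, was also the single list gene that passed before transformation, where it fell by 0.92 ± 0.18 relative to controls (adjusted p = 0.00594). Of 4 tested factors of thymus organ formation, including Pax9 and Hoxa3, 0 passed in any comparison in limma with arrays as deposited. After rescaling, Trp63 passed as higher in lymphomas relative to controls.

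Lists of epithelial products were also examined. Of 8 tested genes of epithelial junctions and keratins, Ehf fell by 0.64 ± 0.13 (adjusted p = 0.00147) and Krt15 rose by 0.65 ± 0.23 (adjusted p = 0.0351) in lymphomas relative to controls, 1 of 8 in each direction beside 25.4% and 15.6% of all tested probe sets, and 0 passed before transformation. Cdh1, the junctional cadherin of epithelium, did not exceed the floor in any mouse before transformation and was not tested. Of 4 tested antigens that depend on Aire, Ins2 rose by 0.98 ± 0.19 in lymphomas relative to controls (adjusted p = 0.000955) and by 0.58 ± 0.20 relative to mice before transformation (adjusted p = 0.0345), and Tff3 fell by 1.16 ± 0.43 relative to mice before transformation (adjusted p = 0.0445), a call that was lost after quantile normalization. For these antigens 1 of 4 rose relative to controls, beside 15.6% of all tested probe sets, and 1 rose and 1 fell relative to mice before transformation, beside 14.7% and 22%.

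The thymocyte side of the exchange with epithelium changed already before transformation. Of 6 receptors and targets of epithelial ligands, 5 fell in lymphomas relative to controls, beside 25.4% of all tested probe sets, 3 fell relative to mice before transformation, beside 22%, and 4 fell before transformation relative to controls, where 5.91% of all tested probe sets fell. Ccr9, the receptor of Ccl25, fell by 1.23 ± 0.05 (SE) before transformation relative to controls and was 2.83-fold lower in lymphomas than in controls (adjusted p = 0.00484). Notch1, the main receptor of Dll4 on progenitors, fell by 2.03 ± 0.11 before transformation relative to controls. It fell by 5.19 ± 0.18 in lymphomas relative to controls, with 5 of 8 lymphomas at the floor. Ptcra, the pre-T-cell receptor chain, fell by 1.78 ± 0.11 before transformation and Notch3 by 0.40 ± 0.09, while Hes1, a Notch target, did not pass in any comparison. Ltb, a lymphotoxin through which thymocytes sustain the medulla, fell by 1.34 ± 0.21 before transformation (adjusted p = 0.00138) and fell by 2.65 ± 0.68 in lymphomas (adjusted p = 0.00611), relative to controls. It was 1 of 2 tested thymocyte signals to medullary epithelium, beside 5.91% and 25.4% of all tested probe sets that fell. The other, Cd40lg, differed by 0.82 ± 0.32 in lymphomas relative to controls (limma, adjusted p = 0.0503). After either rescaling, Cd40lg passed as higher in both lymphoma comparisons.

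In the proteasome of cortical cells, Psmb11 replaces some catalytic subunits and is paired with others. Of 6 other catalytic proteasome subunits, measured in bulk RNA and not assigned to cortical cells, 3 fell in lymphomas relative to controls, beside 25.4% of all tested probe sets. These were Psmb8, Psmb9 and Psmb10, which form the immunoproteasome, by 1.33 ± 0.24, 1.58 ± 0.35 and 0.52 ± 0.14 (limma, adjusted p = 0.000577, 0.00224 and 0.00926). Psmb10 did not pass after quantile normalization. Psmb5, Psmb6 and Psmb7 did not pass with arrays as deposited, although Psmb5 and Psmb6 passed as higher after quantile normalization. Before transformation Psmb8 fell by 0.71 ± 0.14 (adjusted p = 0.00649) and Psmb9 by 0.69 ± 0.18 (adjusted p = 0.0289), 2 of 6 beside 5.91%.

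**Figure D5:**
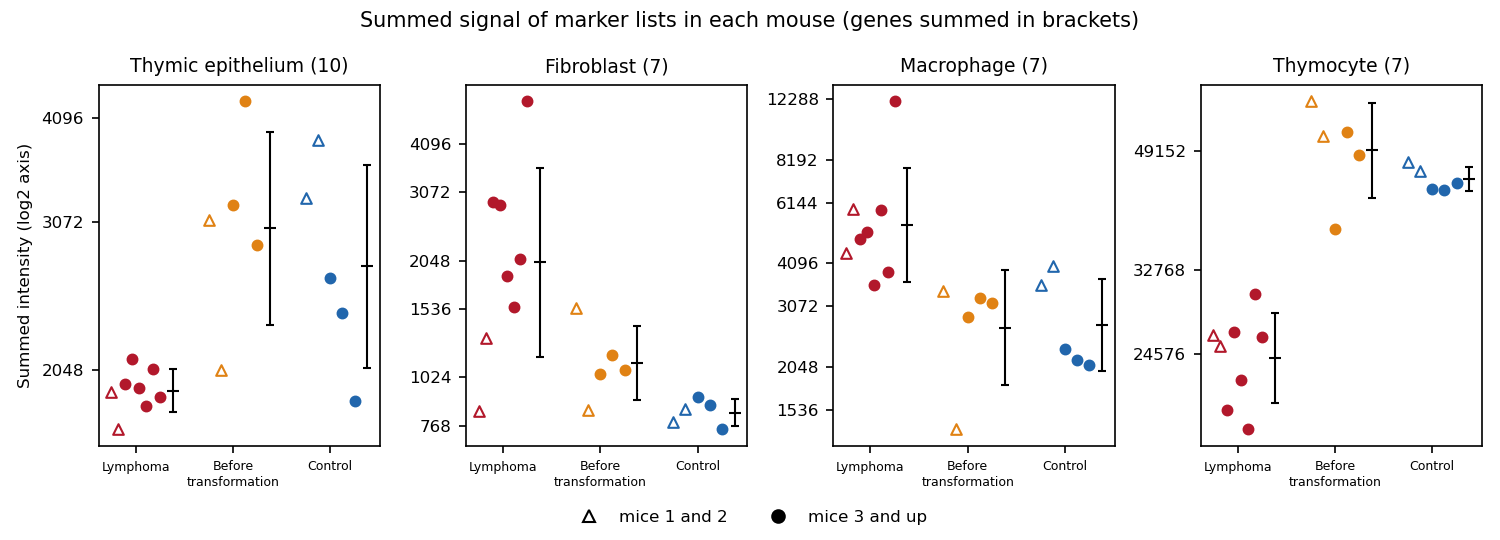
Summed intensity, on a log2 axis, of the 10 members and of fibroblast, macrophage and thymocyte markers (7 genes each) in each mouse, by group. Open triangles are mice 1 and 2, filled circles mice 3 and up, and black bars the mean ± SD of log2 sums. The members' sum lies at 1739 to 2113 in lymphomas, while fibroblast and macrophage sums reach their highest values there and thymocyte sums their lowest.

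Markers of other cells moved with the lymphoma comparisons. Their counts relative to controls stand beside 15.6% of all tested probe sets that rose and 25.4% that fell, and relative to mice before transformation beside 14.7% and 22%. The members' summed intensity, over 10 genes by their brightest probe sets, was 1739 to 2113 in lymphomas, 2048 to 4289 before transformation and 1879 to 3847 in controls. Of 7 tested macrophage markers 5 rose (C1qa by 2.79 ± 0.50, and C1qb, C1qc, Cd68 and Adgre1) and Csf1r fell in lymphomas relative to controls, with sums of 3546 to 12157 in lymphomas, 1345 to 3394 before transformation and 2067 to 4014 in controls. Of 5 tested fibroblast markers 4 rose and 0 fell in lymphomas relative to controls. The fibroblast sums were 839 to 5291 in lymphomas, 844 to 1547 before transformation and 751 to 911 in controls. Relative to mice before transformation, 4 macrophage and 2 fibroblast markers rose in lymphomas and 0 fell. After either rescaling, Adgre1, Col1a1, Col1a2 and the endothelial markers Esam and Egfl7 also passed as higher there. Relative to controls, Esam and the dendritic cell marker Xcr1 did so. Pdgfrb was at the floor in every mouse before transformation and Lum in every control. All 7 thymocyte markers fell in both lymphoma comparisons. Endothelial sums overlapped, at 1251 to 1811 in lymphomas, 1354 to 1662 before transformation and 1370 to 1654 in controls, with 1 of 5 tested markers, Egfl7, higher than in controls. Of 5 dendritic cell markers 1 rose, so this count and the endothelial one lie near the share of all tested probe sets, and of 4 B cell markers 0 passed. The part that these other cells had in the members' differences was not tested. Nor was the part that the collection of lymphomas as tumour masses or thymocytes had in the marker and member differences.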

How the data were processed

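Gene expression was measured in 18 mice on 1-colour Affymetrix arrays. The values are intensities that the authors computed with dChip, per the labels (its version and model were not stated), and deposited as 1 table of 45101 probe sets. Of these values 9775 (1.20%) were blank, and 606 were negative, 605 of them in control 1. Array medians differed by less than 0.5 on the log2 scale, so no rescaling was applied. Blanks and values below the 20th percentile (53.5) were set to that floor and log2 was taken. Probe sets above the 40th percentile (109) on at least 5 arrays, without 64 control probe sets, were fitted with limma 3.58.1 in R 4.3.3 (lmFit and eBayes with an intensity trend), each pair of groups alone. P-values were adjusted by Benjamini-Hochberg over 29947 probe sets, and a call needed an adjusted p under 0.05. The fit was tested on simulated data. Gene names came from the array platform's annotation, where 34958 probe sets had 1 symbol. Promoters came from RefSeq.

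Mice were grouped by title. The members and gene lists were chosen with earlier results of these data known. All members are named, and of each other list up to 4 genes per comparison with the smallest adjusted p, by their brightest probe set, together with the 5 genes most like the members' average. A few listed genes beyond these are named because a setting changed their call, because they lay at the floor or because they define a subunit group or a list, after their values were seen. Alternatives covered the floor, the filter, 2 scalings, the model and the mice used. Listed genes with no singly assigned probe set, such as Ccl19, Ccl21a and Lck, were not analysed here. The number of arrays limits the precision.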

Additional observations from a re-analysis of the deposited data

Results flagged for a closer look

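Of 45 combinations of probe set and group, 2 held a value that stood apart by Dixon's criterion, and chance marks about 1 in 20 such groups. Psmb11 in mouse 4 before transformation was at 203, with a gap to the next mouse of 0.720 of the group's range. Epcam on its _x_at probe set in lymphoma 2 was at 567, the lowest of the lymphomas, with a gap of 0.643 of the range.

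The difference of Krt18 between mice before transformation and controls changed between mice 1 and 2 and mice 3 and up by -1.99 ± 0.36 on the log2 scale (SE, limma, adjusted p = 0.0454). The within-set differences were -0.76 and 1.23. The comparison of the sets was chosen after seeing the data, in which controls 1 and 2 already stood apart in Krt18. The sets were formed by mouse number and separate controls with female from controls with male signals, so the cause was not tested.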

How the results depend on the processing

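The lymphoma differences of Prss16 and Ccl25 passed the test with the same sign under every alternative run. Over all member probe sets and settings with a test, the 3 comparisons (lymphoma minus control, lymphoma minus before transformation, before transformation minus control) kept their direction and their side of the threshold in 267, 249 and 233 values. They gained a call in 3, 19 and 7, lost one in 1, 1 and 0, and changed sign in 3, 5 and 12, always for a member that had not passed. The cause was not tested in any of these unless stated.

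Probe sets called numbered 12263, 11003 and 3111, and with 1 probe set per gene, where fewer were tested, 5618, 4816 and 1478. Lymphoma minus before transformation gave 7186 in mice 1 and 2, and before transformation minus control gave 1761 with all 3 groups in 1 fit and 2023 with controls 3 to 5 only. Leaving out 1 mouse gave 10327 to 13042, 8791 to 11547 and 2375 to 3323. Rescaling moved the median difference of all probe sets for lymphoma minus control from -0.07 to 0.03 after quantile normalization, a shift of 0.11, and the higher calls from 38.1% to 51.7% (49.4% after median centring). For lymphoma minus before transformation they went from 40.1% to 51.4% and 49.7%. The members called stayed at 5 against controls under both scalings and were 5 and 4 against mice before transformation.

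Member probe sets called in lymphoma minus before transformation numbered 7 in a fit blocked on the set of mouse numbers (7 lower, beside 28.7% of all tested probe sets lower in that fit), 8 in mice 3 and up, and 4 to 7 when 1 mouse was left out, the 7 without mouse 2 before transformation. Before transformation minus control gave 2 in mice 1 and 2, 2 in mice 3 and up, 2 with controls 3 to 5 only (Prss16 at 1.36, Krt18 at 1.13), and 0 to 1 when 1 mouse was left out. That 1 was the _a_at probe set of Epcam at -0.85 (adjusted p = 0.00413) without mouse 3 before transformation. For lymphoma minus control, leaving out 1 mouse gave 5 to 6.

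Signs turned as follows. Lymphoma minus control, in mice 3 and up, gave Psmb11 0.077, Krt8 0.21 and Aire 0.14. Lymphoma minus before transformation, in mice 1 and 2, gave Foxn1 0.043, Krt5 0.41, Aire -0.021 and Dll4 0.20, and with 1 mouse left out Krt5 ran from -0.22 to 0.0065, above 0 only without mouse 3 before transformation. Before transformation minus control, in mice 1 and 2, gave Prss16 -0.75, Ccl25 -0.71, Psmb11 -0.31, Krt5 -0.40, Krt8 -0.20, Krt18 -0.76 and the _x_at probe set of Epcam -0.15. In mice 3 and up it gave Foxn1 0.31 and Dll4 0.19, and Dll4 was 0.093 with controls 3 to 5 only, and with 1 mouse left out ran from -0.15 to 0.040, above 0 without mouse 2 before transformation (0.017) and without control 2 (0.040).

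Mouse numbers did not pair the arrays, since deviations of same-numbered mice correlated between -0.144 and 0.377. With the replicate number as a block, 10763, 11515 and 3053 probe sets passed, and 5, 6 and 0 members, the added ones being Psmb11 (adjusted p = 0.0249) and the _x_at probe set of Epcam (0.0335).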
